A study of Homo sapiens with 6 samples.

Results

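Annexins are proteins that bind negatively charged phospholipids when calcium rises, through a conserved core built from repeats of the annexin domain. Their amino-terminal tails differ between members and carry the contacts with partners, among them small calcium-binding S100 proteins. In epithelial cells annexins are known for work in membrane repair, exocytosis and endocytosis, and in organising the cortex under the plasma membrane. The family described here was chosen by the measured FPKM difference of ANXA9, which stood among the clearest rises after depletion of the splicing factor SF3B4. Its members are 10 annexin genes, ANXA1 to ANXA9 and ANXA11, of 50868 genes listed, found by matching Ensembl identifiers to gene symbols. The value that chose the family, the difference of ANXA9, is given below as a description and without a test.

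RNA-seq was run on 6 libraries labelled A549, an established human lung adenocarcinoma line, 3 from cells transfected with an siRNA against SF3B4 (si-SF3B4) and 3 from cells transfected with a scramble siRNA (si-NC). Short interfering RNAs load onto Argonaute and lead to cleavage of transcripts that match them. SF3B4 belongs to the SF3b complex, with which U2 snRNP grips the branch point region of introns. The sources used here give no dose, time after transfection or siRNA sequence. The titles call the replicates biological without saying whether they were separate cultures, so the p-values below measure the spread between these libraries, which may be technical.

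All values are FPKM, fragments scaled by transcript length and by library total, and the steps between low values imply 17508442 to 18529641 fragments per library. SF3B4 was at 22.0, 17.7 and 22.3 FPKM in si-SF3B4 libraries and at 88.6, 92.0 and 93.8 FPKM in si-NC libraries, 22.6% of the si-NC mean (limma adjusted p = 8.8e-05; exact two-sided permutation test p = 0.1, the smallest that 3 against 3 allows). The genotype labels of si-SF3B4 replicates 2 and 3 name SF3B5 and SF3B6, against their titles, which were followed. The column headers of the tables name another lung line, H1650. Keratin genes KRT7, KRT8, KRT18 and KRT19 lay between 221 and 709 FPKM and EPCAM between 18.0 and 28.8 FPKM in the 6 libraries. Of 15 genes known to be high in A549, 8 stayed below 1 FPKM in all libraries, ALDH1A1 at no more than 0.0594 FPKM, and VIM reached no more than 4.06 FPKM, while NQO1 was at 147 to 180 FPKM. The other 4 genes of the lung adenocarcinoma list were also nearly absent, NKX2-1 and NAPSA at no more than 0.0778 FPKM and SFTPB and SFTPC at 0 in all libraries. Keratins and EPCAM were thus present and lung lineage markers were not, while 8 of the 15 genes typical of A549 were nearly absent, and the line is given as labelled.

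ANXA9 lies on chromosome 1 (GRCh38, 150982017 to 150995634, plus strand, ENSG00000143412). It encodes an atypical annexin in which residues of the usual calcium sites are replaced, and it is known mainly from stratified epithelia. The gene was at 30.9, 32.4 and 31.5 FPKM in si-SF3B4 libraries, against 14.2, 13.996 and 14.5 FPKM in si-NC libraries. All 3 si-SF3B4 libraries stood far above all 3 si-NC libraries, and the libraries of a group lay close together. In such bulk libraries, more cells that express a gene and more RNA per cell cannot be told apart. The means were 31.6 ± 0.786 and 14.2 ± 0.247 FPKM (SD, n = 3 each), a ratio of 2.22. On the log2 scale the difference was 1.15 ± 0.06 (SE), rank 75 of the 9685 tested genes when these are ordered from the highest fold change down. The coefficient of variation was 2.48% among si-SF3B4 libraries and 1.74% among si-NC libraries. No exon of ANXA9 overlapped an exon of another gene in GENCODE 29.

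**Figure D1:**
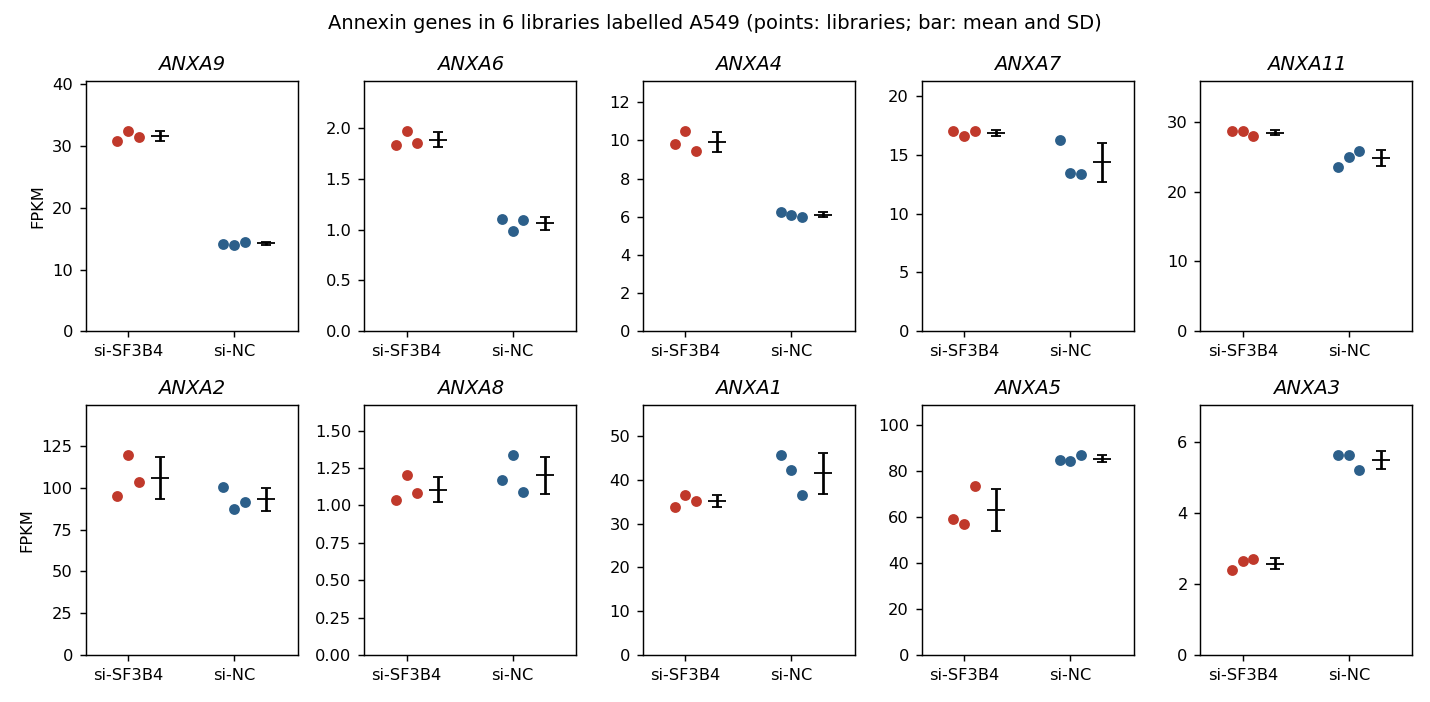
FPKM of the 10 annexin genes, each on its own linear axis from 0, in si-SF3B4 (red) and si-NC (blue) libraries. Points are libraries and black bars are the mean and SD of 3 libraries; panels run from the highest to the lowest log2 fold change, with ANXA9 at a mean of 31.6 FPKM against 14.2 FPKM and ANXA3 at 2.57 FPKM against 5.49 FPKM.

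The other 9 members were listed as relatives of ANXA9 and not for their own values. All 10 genes passed the filter of at least 1 FPKM in at least 3 libraries; 9 had that level in all 6 libraries and ANXA6 in 5. Of the other 9, ANXA4, ANXA6 and ANXA11 were higher and ANXA3 and ANXA5 lower at an adjusted p under 0.05 in limma's linear model across all tested genes. ANXA1, ANXA2, ANXA7 and ANXA8 did not pass. Across all genes tested 34.1% passed, 16% higher and 18.1% lower, and nothing is read from the family's count, which with ANXA9 comes to 4 higher and 2 lower. The median log2 fold change of the 10 genes was 0.19, beside -0.0035 over all tested genes. Groups did not overlap in 8 of the 10 genes, and in 49.5% of all tested genes.

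ANXA6 and ANXA4 had the next largest rises. ANXA6, which encodes an annexin with a duplicated core that is tied to cholesterol traffic and to the Ras regulator RASA1, was at 1.83, 1.97 and 1.86 FPKM in si-SF3B4 libraries and at 1.11, 0.986 and 1.10 FPKM in si-NC libraries. The groups were well apart, although the level was low in both. Its log2 fold change stood at 0.77 ± 0.11 (SE; adjusted p = 0.0021 in limma), and at 0.48 with a pseudocount of 1 (adjusted p = 0.0020). With si-NC replicate 2 at 0.986 FPKM, ANXA6 met the filter through the si-SF3B4 libraries, where it is high. Its place among the genes counted as higher thus supports nothing. Without the filter the limma adjusted p of ANXA6 was 0.0068. ANXA4, known from the apical region of secretory epithelia, was at 9.80, 10.5 and 9.47 FPKM in si-SF3B4 libraries, against 6.23, 6.09 and 5.997 FPKM in si-NC libraries. All si-SF3B4 values exceeded all si-NC values, with a log2 fold change of 0.69 ± 0.08 (SE; adjusted p = 0.00076 in limma). ANXA6 lies on chromosome 5 (151100712 to 151157882) and ANXA4 on chromosome 2 (69644425 to 69827100).

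ANXA3 and ANXA5, both on chromosome 4, fell. ANXA3, an annexin abundant in neutrophils and found in many carcinomas, was at 2.39, 2.63 and 2.69 FPKM in si-SF3B4 libraries and at 5.63, 5.63 and 5.20 FPKM in si-NC libraries. Every si-SF3B4 value lay below every si-NC value, and the mean was 46.9% of the si-NC mean. On the log2 scale the difference was -1.07 ± 0.09 (SE; limma adjusted p = 0.00028). ANXA5 binds phosphatidylserine, is used as a probe for dying cells, and forms lattices on damaged membrane. It was at 59.0, 56.6 and 73.2 FPKM in si-SF3B4 libraries and at 84.6, 84.0 and 86.9 FPKM in si-NC libraries. The groups did not overlap, but si-SF3B4 replicate 3 stood nearer to si-NC than the other two. The log2 fold change of ANXA5 was -0.44 ± 0.10 (SE; adjusted p = 0.011 in limma), and -0.56 without that library (adjusted p = 0.0025). ANXA3 spans 78551519 to 78610451 and ANXA5 121667955 to 121697113.

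ANXA11, ANXA7 and ANXA1 differed by smaller amounts. ANXA11, which tethers RNA granules to lysosomes, was at 28.6, 28.7 and 28.0 FPKM in si-SF3B4 libraries and at 23.6, 25.0 and 25.9 FPKM in si-NC libraries. The groups were separate and close, with a log2 fold change of 0.20 ± 0.06 (SE; adjusted p = 0.0486 in limma). This call was lost without any 1 of the 6 libraries (adjusted p from 0.0725 to 0.136), when low genes were kept, when the variance was modelled without a trend, and with a replicate block. ANXA7, known from fusion of secretory granules, was at 17.0, 16.6 and 17.0 FPKM in si-SF3B4 libraries and at 16.3, 13.4 and 13.3 FPKM in si-NC libraries. Its si-NC replicate 1 stood close to the si-SF3B4 values, and the difference did not pass (log2 fold change 0.24, limma adjusted p = 0.083, and 0.33 with adjusted p = 0.011 without that library). ANXA1, the glucocorticoid-induced annexin that acts on formyl peptide receptors, was at 33.8, 36.5 and 35.3 FPKM in si-SF3B4 libraries and at 45.8, 42.3 and 36.5 FPKM in si-NC libraries. Its highest si-SF3B4 value and its lowest si-NC value nearly met. The log2 fold change of -0.23 did not pass (limma adjusted p = 0.085); without si-NC replicate 3 it was -0.32 and passed (adjusted p = 0.026). The formyl peptide receptor genes FPR1, FPR2 and FPR3 did not pass the filter. ANXA11 (80150889 to 80205572) and ANXA7 (73375101 to 73414076) lie on chromosome 10 and ANXA1 on chromosome 9 (73151757 to 73170393).

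**Figure D2:**
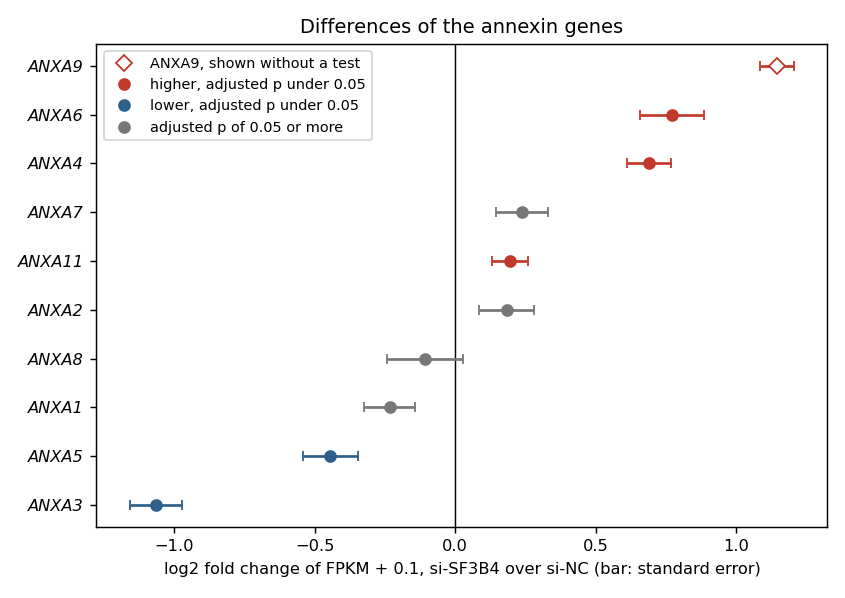
Log2 fold change of FPKM + 0.1, si-SF3B4 over si-NC, for each annexin gene with its standard error (n = 3 libraries per group). Red marks genes that were higher and blue genes that were lower at an adjusted p under 0.05, grey marks the others, and the open diamond is ANXA9 at 1.15, given without a test.

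ANXA2 and ANXA8 have near-identical copies in the genome, which bears on how their fragments were assigned. The copy most like ANXA2 (chromosome 15, 60347134 to 60402883) is the processed pseudogene ANXA2P2 on chromosome 9 (33624274 to 33625293). Its 1020 bases aligned to the ANXA2 transcript with 16 mismatches and no gap, an identity of 98.4%, and 59.2% of its 50-base words occur in that transcript unchanged. The coding stretch with the most mismatches is shown because the capitals mark the bases by which a read could be told apart there, at bases 287 to 346 of the ANXA2 transcript and 161 to 220 of the pseudogene (GENCODE 29).
ANXA2: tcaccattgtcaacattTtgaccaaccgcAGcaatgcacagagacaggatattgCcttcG
ANXA2P2: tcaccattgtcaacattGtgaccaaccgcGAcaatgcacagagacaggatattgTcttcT

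ANXA2, which forms a complex with S100A10 at the cell cortex and binds plasminogen, was listed at 94.9, 119.9 and 104 FPKM in si-SF3B4 libraries and at 100.4, 87.2 and 91.8 FPKM in si-NC libraries. The groups overlapped, and the log2 fold change of 0.18 ± 0.10 (SE) did not pass (limma adjusted p = 0.18); without si-SF3B4 replicate 2 it was 0.09. ANXA2P2 was listed at 677, 763 and 720.1 FPKM in si-SF3B4 libraries and at 730.0, 626 and 621 FPKM in si-NC libraries, far above the gene from which it derives. Its ratio to ANXA2 was 6.82 ± 0.404 in si-SF3B4 libraries and 7.07 ± 0.273 in si-NC libraries (SD, n = 3 each). In this single-exon pseudogene the values correspond to about 12094, 14091 and 13610 fragments in si-SF3B4 libraries and 13585, 11343 and 11498 fragments in si-NC libraries. These numbers are rounded, and before rounding they lay up to 0.267 from a whole fragment. How fragments that match several copies were assigned is not stated. ANXA2 made up 12.7% ± 0.676 of the summed FPKM of itself and its pseudogenes in si-SF3B4 libraries and 12.3% ± 0.428 in si-NC libraries (SD, n = 3 each). Summed with ANXA2P1, ANXA2P2 and ANXA2P3, the level was 834 ± 55.6 and 758 ± 68.3 FPKM in si-SF3B4 and si-NC libraries (SD, n = 3 each), a difference that did not pass (limma adjusted p = 0.22; exact two-sided permutation test p = 0.3). The value of ANXA2 alone is uncertain for this reason.

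ANXA2P1, a processed pseudogene on chromosome 4 (153307792 to 153308717) with 93.9% identity over 923 aligned bases, was at 7.52, 8.05 and 7.75 FPKM in si-SF3B4 libraries and at 6.69, 6.39 and 5.47 FPKM in si-NC libraries. The groups were separate (log2 fold change 0.33, limma adjusted p = 0.034), but the call was lost when si-NC replicate 2 or 3, or any si-SF3B4 replicate, was left out (adjusted p from 0.0584 to 0.101), with a replicate block (0.0612) and without the filter (0.0796). ANXA2P3, at 92.3% identity, held 1, 1 and 0 fragments in si-SF3B4 libraries and 0 in each si-NC library. ANXA2R, which encodes a receptor for annexin A2, was at 1.61 ± 0.282 and 1.88 ± 0.189 FPKM in si-SF3B4 and si-NC libraries (SD, n = 3 each) and did not pass (limma adjusted p = 0.31).

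ANXA8 lies on chromosome 10 (47460162 to 47484158) and encodes an annexin of late endosomes that was first described as an anticoagulant. The paralog ANXA8L1 is on the same chromosome (46375627 to 46391784), and their transcripts matched in all but 13 of 2174 aligned bases, an identity of 99.4%. The pair below is shown to display how little separates these genes, even in the coding stretch with the most mismatches. It holds 60 coding bases with 2 mismatches, marked by capitals, at bases 810 to 869 of both transcripts.
ANXA8: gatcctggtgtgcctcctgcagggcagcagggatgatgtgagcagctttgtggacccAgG
ANXA8L1: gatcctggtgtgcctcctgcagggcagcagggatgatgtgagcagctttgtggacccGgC

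ANXA8 was at 1.03, 1.20 and 1.08 FPKM in si-SF3B4 libraries and at 1.17, 1.34 and 1.09 FPKM in si-NC libraries. ANXA8L1 was at 0.824, 0.837 and 0.857 FPKM in si-SF3B4 libraries and at 0.836, 0.790 and 0.641 FPKM in si-NC libraries, under the filter in all 6. Groups overlapped for both genes, and ANXA8 did not pass (log2 fold change -0.11, limma adjusted p = 0.58). Summed, they stood at 1.94 ± 0.0893 and 1.96 ± 0.203 FPKM in si-SF3B4 and si-NC libraries (SD, n = 3 each; limma adjusted p = 0.98). Of the remaining family, ANXA10 was listed at 0 in all 6 libraries and ANXA13 at 0.0208 FPKM in si-NC replicate 1 and at 0 in the other five.

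**Figure D3:**
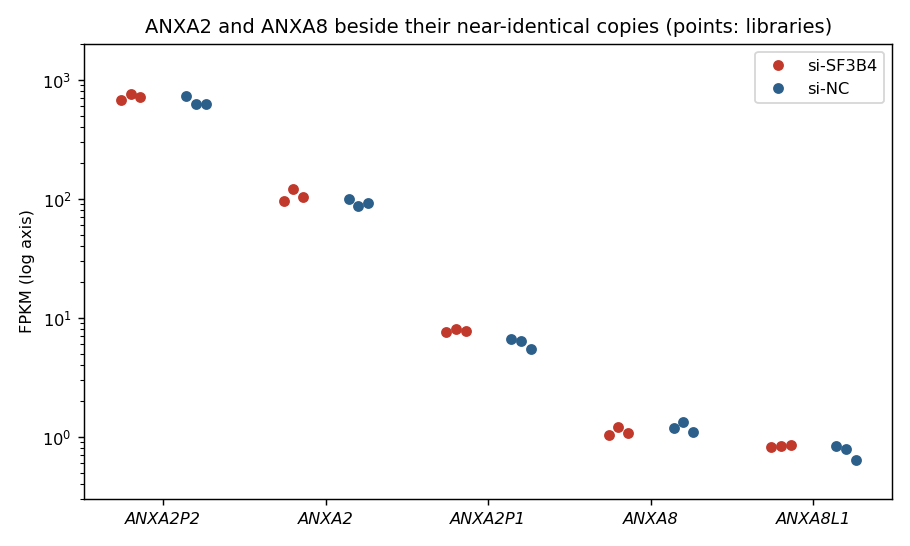
FPKM on a log axis of ANXA2 and ANXA8 beside near-identical copies, in si-SF3B4 (red) and si-NC (blue) libraries; each point is a library. The pseudogene ANXA2P2 lies at 621 to 763 FPKM, above ANXA2 at 87.2 to 119.9 FPKM, and ANXA8 and ANXA8L1 lie near 1 FPKM.

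By level per length, the order of the family in si-SF3B4 libraries was ANXA2, ANXA5, ANXA1, ANXA9, ANXA11, ANXA7, ANXA4, ANXA3, ANXA6 and ANXA8, at means of 106 down to 1.11 FPKM, and no neighbours in it overlapped. In si-NC libraries ANXA2 (93.2 FPKM) and ANXA5 (85.2 FPKM) led, followed by ANXA1, ANXA11, ANXA7, ANXA9, ANXA4, ANXA3, ANXA8 and ANXA6. There, ANXA7 and ANXA9 overlapped, as did ANXA8 and ANXA6. ANXA9 thus stood above ANXA11 and ANXA7 in every si-SF3B4 library, and in si-NC libraries it was below ANXA11 and level with ANXA7. The summed FPKM of the 10 genes was 297 ± 15.1 in si-SF3B4 libraries and 287 ± 10.4 in si-NC libraries (SD, n = 3 each). Within that sum ANXA9 took 10.4% to 11.1% in si-SF3B4 libraries and 4.75% to 5.13% in si-NC libraries. ANXA5 took 18.5% to 24.1% in si-SF3B4 libraries and 28.3% to 30.8% in si-NC libraries. ANXA2 took 34.0% to 39.1% in si-SF3B4 libraries and 31.2% to 33.6% in si-NC libraries, without the fragments placed on its pseudogenes.

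S100 proteins are the best known partners of annexins, and 12 of 17 S100 genes on the list passed the filter. Of these, 4 rose and 3 fell, 58.3% called beside 34.1% of all tested genes, with a median log2 fold change of -0.07. S100A10, the partner of ANXA2, was at 437, 689 and 642 FPKM in si-SF3B4 libraries and at 756, 914 and 903 FPKM in si-NC libraries. S100A11, the partner of ANXA1, was at 1417, 1283 and 1103 FPKM in si-SF3B4 libraries and at 2242, 2323 and 2491 FPKM in si-NC libraries. Both partner genes were thus lower in all si-SF3B4 libraries and passed the test. ANXA1 was also lower in all si-SF3B4 libraries but did not pass. The groups of ANXA2 overlapped, and it did not pass. The log2 fold change was -0.56 ± 0.18 for S100A10 (SE; adjusted p = 0.048 in limma) and -0.90 ± 0.09 for S100A11 (SE; adjusted p = 0.00053 in limma). The call of S100A10 was lost without si-NC replicate 2, si-NC replicate 3 or si-SF3B4 replicate 3 (adjusted p = 0.126, 0.128 and 0.0723), without the filter (0.113), after rescaling to TPM (0.056) and without trend and robust option (0.0575). Without si-SF3B4 replicate 1, the lowest library, the log2 fold change of S100A10 was -0.36 (limma adjusted p = 0.0319). These partner genes, and S100A14 below, were named after their values were seen. S100A10 (chromosome 1, 151982915 to 151994390) and S100A11 (152032506 to 152047907) lie in the S100 cluster on the chromosome that also carries ANXA9.

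The calgranulin genes S100A8, S100A9 and S100A12, whose products are secreted by myeloid cells and stressed epithelia, all rose. S100A9 was at 1248, 1378 and 1233 FPKM in si-SF3B4 libraries, against 679, 694 and 679.7 FPKM in si-NC libraries. S100A8 was at 42.2, 54.9 and 44.5 FPKM in si-SF3B4 libraries, against 25.4, 26.5 and 23.3 FPKM in si-NC libraries. S100A12 was at 6.51, 7.25 and 4.90 FPKM in si-SF3B4 libraries, against 1.80, 2.61 and 2.13 FPKM in si-NC libraries. For each of them every si-SF3B4 library lay above every si-NC library. The log2 fold changes were 0.91 ± 0.06, 0.90 ± 0.11 and 1.47 ± 0.18 for S100A9, S100A8 and S100A12 (SE; limma adjusted p = 9.6e-05, 0.00091 and 0.0011). Of 5 leukocyte markers, PTPRC and LYZ were at 0 in all libraries and 4 stayed below 1 FPKM, while CD14 was at 2.45 to 6.59 FPKM. The summed level of the 5 was 4.76 to 6.59 FPKM in si-SF3B4 libraries and 2.46 to 2.87 FPKM in si-NC libraries, and its part in the rise of the calgranulin genes was not tested.

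S100A14, an epithelial S100 gene, also rose, at 202, 170.3 and 171 FPKM in si-SF3B4 libraries and at 102, 106 and 115 FPKM in si-NC libraries (log2 fold change 0.75 ± 0.08, SE; adjusted p = 0.00071 in limma). S100A3, known from the hair cuticle, was at 1.73, 0.943 and 1.47 FPKM in si-SF3B4 libraries and at 3.57, 3.84 and 3.54 FPKM in si-NC libraries. Its groups did not overlap, and it fell by 1.38 on the log2 scale (SE 0.20; adjusted p = 0.0020 in limma). With si-SF3B4 replicate 2 at 0.943 FPKM, S100A3 met the filter through the si-NC libraries, where it is high. Its place among the S100 genes counted as lower thus supports nothing. Without the filter the limma adjusted p of S100A3 was 0.0116. S100A2, S100A4, S100A6, S100A13 and S100A16 did not pass.

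**Figure D4:**
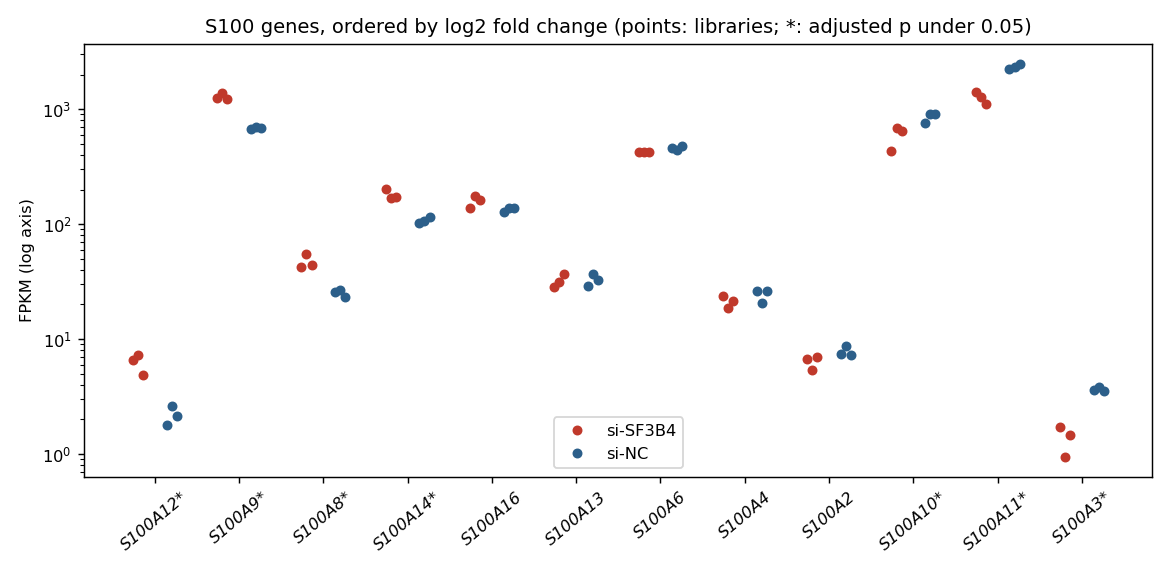
FPKM on a log axis of the tested S100 genes in si-SF3B4 (red) and si-NC (blue) libraries; each point is a library. S100A9 lies at 1233 to 1378 FPKM in si-SF3B4 libraries and at 679 to 694 FPKM in si-NC libraries, and S100A11 lies lower in si-SF3B4 libraries, at 1103 to 1417 FPKM against 2242 to 2491 FPKM.

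Among 15 annexin partners outside the S100 family, 9 were tested, of which 1 rose and 2 fell, with a median log2 fold change of -0.11. The share called, 33.3%, was near the 34.1% of all tested genes. PDCD6, also called ALG-2, is a calcium sensor that binds ANXA7 and ANXA11. It was at 16.4, 18.2 and 17.4 FPKM in si-SF3B4 libraries and at 14.02, 12.6 and 12.1 FPKM in si-NC libraries, without overlap (log2 fold change 0.42 ± 0.08, SE; adjusted p = 0.0073 in limma). SRI encodes sorcin, a partner of ANXA7, and was at 22.2, 20.7 and 21.6 FPKM in si-SF3B4 libraries and at 24.8, 28.5 and 29.03 FPKM in si-NC libraries. It was lower in every si-SF3B4 library (log2 fold change -0.35 ± 0.08, SE; adjusted p = 0.014 in limma). PLAU, the urokinase plasminogen activator, was at 19.5 ± 0.984 and 22.9 ± 0.429 FPKM in si-SF3B4 and si-NC libraries (SD, n = 3 each; log2 fold change -0.23, limma adjusted p = 0.032). The PLAU call was lost without si-NC replicate 2 or 3 or si-SF3B4 replicate 1 or 2 (adjusted p from 0.0763 to 0.102), with a replicate block (0.0642), without the filter (0.0616) and without trend and robust option (0.0559), and 31.1% of its exonic bases overlap C10orf55 on the other strand. AHNAK, HRAS, RASA1, PLAUR, DYSF and PDCD6IP did not pass.

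Annexins take part in resealing of torn plasma membrane, and of 28 genes of that process 27 were tested. The calls were 6 higher and 6 lower, 44.4% called beside 34.1% of all tested genes, with a median log2 fold change of 0.05. CAPNS1, the small subunit shared by the calpains, was at 46.3, 43.5 and 58.7 FPKM in si-SF3B4 libraries and at 100.5, 105 and 119.9 FPKM in si-NC libraries. EHD2, a membrane-shaping ATPase at caveolae, was at 64.9, 63.0 and 68.7 FPKM in si-SF3B4 libraries and at 127, 140.4 and 141 FPKM in si-NC libraries. Both genes were lower in all si-SF3B4 libraries, with log2 fold changes of -1.14 ± 0.12 and -1.05 ± 0.07 (SE; limma adjusted p = 0.00064 and 9.6e-05). CAV1, the main caveolar coat protein, averaged 9.25 ± 0.993 FPKM in si-SF3B4 libraries and 16.9 ± 2.34 FPKM in si-NC libraries (SD, n = 3 each; log2 fold change -0.86, limma adjusted p = 0.0017). CHMP1B, a subunit of the ESCRT-III polymer, averaged 8.74 ± 0.23 FPKM in si-SF3B4 libraries and 17.0 ± 2.14 FPKM in si-NC libraries (SD, n = 3 each; log2 fold change -0.95, limma adjusted p = 0.00055).

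The ESCRT genes that follow were named after their values were seen. Those that passed were all higher, while CHMP1B, above, was lower, and nothing is read from these directions. CHMP3 and CHMP2A had log2 fold changes of 0.53 and 0.47 (limma adjusted p = 0.0087 and 0.018). How these calls fared under the alternatives is not given. CHMP1A, CHMP2B, CHMP4A and CHMP4C did not pass. VPS4B and PDCD6IP had log2 fold changes of -0.46 and -0.38 and did not pass (limma adjusted p = 0.0553 and 0.0557). VPS4A, the ATPase that takes ESCRT-III apart, averaged 49.0 ± 1.72 and 30.9 ± 1.61 FPKM in si-SF3B4 and si-NC libraries (SD, n = 3 each; log2 fold change 0.66, limma adjusted p = 0.00047). Since 22.0% of its exonic bases overlap COG8 on the other strand and 21.0% another protein-coding entry on its own strand, its value is uncertain. CHMP4B, the main filament subunit of ESCRT-III, averaged 257 ± 4.47 and 205 ± 4.69 FPKM in si-SF3B4 and si-NC libraries (SD, n = 3 each; log2 fold change 0.33, limma adjusted p = 0.0026). TSG101, of ESCRT-I, averaged 4.57 ± 0.1 and 3.64 ± 0.0999 FPKM in si-SF3B4 and si-NC libraries (SD, n = 3 each; log2 fold change 0.32, limma adjusted p = 0.021). That last call was lost without si-NC replicate 2 or any si-SF3B4 replicate (adjusted p from 0.0527 to 0.0761) and with the replicate block (0.0643).

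Of 20 other genes for proteins that bind phospholipid in a calcium-dependent way through C2 domains, 8 were tested, and 1 was higher and 2 were lower, with a median log2 fold change of 0.0011. The share called, 37.5%, was near the 34.1% of all tested genes. ESYT1, a tether between endoplasmic reticulum and plasma membrane, was at 14.1, 11.9 and 14.9 FPKM in si-SF3B4 libraries and at 25.1, 23.3 and 24.7 FPKM in si-NC libraries, well apart (log2 fold change -0.84 ± 0.09, SE; adjusted p = 0.00072 in limma). The copine gene CPNE2 averaged 18.9 ± 1.01 and 23.6 ± 1.23 FPKM in si-SF3B4 and si-NC libraries (SD, n = 3 each; log2 fold change -0.32, limma adjusted p = 0.013). SYTL3, a Rab27 effector, was at 1.20, 1.87 and 1.301 FPKM in si-SF3B4 libraries and at 0.731, 1.04 and 0.790 FPKM in si-NC libraries. It was the gene counted as higher, but it met the filter through the si-SF3B4 libraries, where it is high, so its values are given as a description and its count supports nothing. Without the filter the difference did not pass (limma adjusted p = 0.0904).

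Within 250 kb of ANXA9 12 other genes were tested. Of these, 0 passed at an adjusted p under 0.05 in limma, beside 34.1% of all tested genes. An unadjusted p under 0.05 in limma was found for 2 of the 12. The share of all tested genes at that unadjusted threshold is not given, so nothing is read from this count. Groups did not overlap in 4 of the 12, beside 49.5% of all tested genes. Their log2 fold changes ran from -0.58 to 0.28, with a median of -0.02, beside 1.15 for ANXA9. MINDY1, a deubiquitinase gene on the opposite strand, 452 bases beyond the end of ANXA9, averaged 2.63 ± 0.0726 FPKM in si-SF3B4 libraries and 2.20 ± 0.194 FPKM in si-NC libraries (SD, n = 3 each; log2 fold change 0.25, limma adjusted p = 0.11). CERS2, a ceramide synthase gene 7013 bases away on the other side, averaged 12.4 ± 0.79 and 15.1 ± 3.37 FPKM in si-SF3B4 and si-NC libraries (SD, n = 3 each; log2 fold change -0.26, limma adjusted p = 0.27). Without si-NC replicate 3, CERS2 passed at -0.45 (adjusted p = 0.015), and without si-SF3B4 replicate 3 C1orf56 passed at -0.87 (adjusted p = 0.0092), against -0.58 with all libraries (adjusted p = 0.11).

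**Figure D5:**
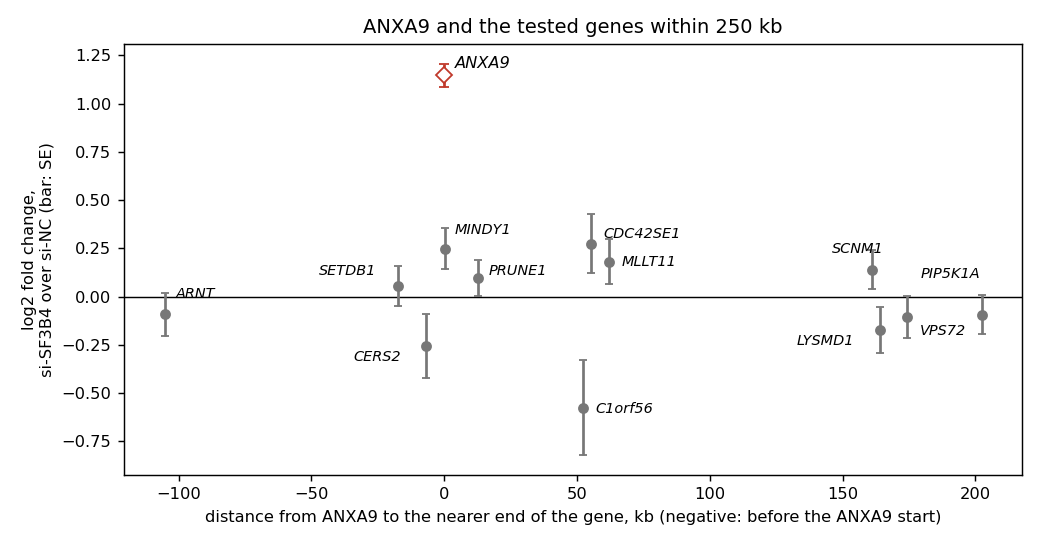
Log2 fold change, si-SF3B4 over si-NC, with its standard error, of tested genes within 250 kb of ANXA9, against distance from the gene in kb. ANXA9 (open diamond) stands at 1.15, and the 12 neighbours lie between -0.58 and 0.28.

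The genes whose pattern lay nearest to that of ANXA9 were sought by Euclidean distance between the 6 log2 values, each taken as the deviation from the gene's si-NC mean. CHST14, a dermatan sulfate sulfotransferase, was nearest at a distance of 0.130 and averaged 25.4 ± 0.337 FPKM in si-SF3B4 libraries and 11.998 ± 0.0645 FPKM in si-NC libraries (SD, n = 3 each). MSRB1, a methionine sulfoxide reductase, followed at 0.146, with 34.7 ± 1.1 and 15.8 ± 0.687 FPKM in si-SF3B4 and si-NC libraries. APBB1IP, an adaptor between Rap1 and talin, lay at 0.176, with 14.9 ± 0.901 and 6.79 ± 0.408 FPKM in si-SF3B4 and si-NC libraries. The transcription factor gene CEBPD lay at 0.180 and the aldehyde dehydrogenase gene ALDH3B2 at 0.202. None of these 5 lies on chromosome 1.

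Earlier results of these data singled out the 7-base words GCCTTCA and CCTTCAA in 3' UTRs, so the annexins were read for them on the transcript strand, in the longest 3' UTR of each gene in GENCODE 29 (GRCh38). The words overlap, so an 8-base GCCTTCAA holds both. None of the 10 annexin 3' UTRs, with a median length of 504 bases, held either word, and 19.1% of 8368 tested genes with a 3' UTR did, with a median length of 1129 bases. In the S100 list 1 of 12 held a word and in the partner list 2 of 9. The repair list had 5 of 27 and the C2-domain list 0 of 8. The sites in genes described above are shown because they lie in genes that passed the test, with the word in capitals.
S100A11: cttggccctgGCCTTCAAacccaccccc
EHD2: gctgtttgctGCCTTCAccacatatta
CHMP1B: ttttttttttGCCTTCAcagtgagact
SRI: tagcacacgcCCTTCAAaacctgttga
TSG101: tccaccaggtGCCTTCAcaactctgag

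The stretches shown, word and flanking bases together, lie at chr1:152032628-152032655 (minus strand), chr19:47742922-47742948 (plus), chr18:11852618-11852644 (plus), chr7:88205968-88205994 (minus) and chr11:18469151-18469177 (minus). S100A11, EHD2, CHMP1B and SRI fell and TSG101 rose, while PDCD6IP and CHMP1A, which also hold a word, did not pass. Among all tested genes 16% were higher and 18.1% lower. Since earlier results of these data chose the words, and the genes shown had passed the test, nothing is read from these directions.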

How the data were processed

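For 50868 Ensembl gene identifiers in each of 6 libraries the authors deposited FPKM, with no counts. The submitters' processing notes list HISAT2 2.0.4, StringTie 1.3.0 and GRCh38 but no roles; annotation and strand setting: not given in the sources used here. Symbols were found for 49659 identifiers, and 50111 were in GENCODE 29, which supplied positions and sequences. Depth was inferred from single-exon genes, where 99.2% to 99.5% of low values lay within 0.02 of a whole fragment; it covers counting error only.

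Groups followed the sample titles. The 9685 genes that reached 1 FPKM in 3 or more libraries were tested with limma 3.58.1 in R 4.3.3 (trend and robust, two-sided) on log2(FPKM + 0.1), which understates changes of low genes, with Benjamini-Hochberg adjustment over all tested genes and a threshold of 0.05. The fit was tested on simulated data. Permutation tests were exact and two-sided.

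The members and lists were chosen with earlier results of these data known. Named genes were SF3B4, the annexins and annexin loci, up to 4 genes past the threshold with the largest change in each related list (where none passed, at most 2 by smallest p), the nearest neighbours of ANXA9 and the 5 genes most like it. Alternatives covered pseudocount, filter, scaling, variance model, replicate block, summed copies and leaving out each library.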

Additional observations from a re-analysis of the deposited data

How the results depend on the processing

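No result reversed under any alternative tried. With a mean FPKM of at least 5 required, 4752 genes were tested, 1027 were higher and 940 lower, against 1546 and 1752 in the fit as reported; 1 annexin gene was lower there, since ANXA3, ANXA6 and ANXA8 were not tested. Leaving out 1 library at a time gave 1094 to 1492 higher and 1331 to 1604 lower genes. With ANXA9 counted in, 3 to 4 annexins were higher and 2 to 3 lower. Since the rise of ANXA9 chose the family, nothing is read from annexin counts that include it. Rescaling to TPM gave 1641 higher and 1629 lower genes, and quantile normalization 1738 and 1636. Over the alternatives the log2 fold change of ANXA9 stayed between 1.10 and 1.17, and ANXA3, ANXA4, ANXA5 and ANXA6 kept their calls wherever they were tested. No pairing of the libraries by replicate number was seen. The correlations of deviations between libraries with the same number were -0.08, 0.02 and -0.12. Not every library correlated best with its own number. Deviations from a group mean of 3 libraries constrain one another, so these correlations cannot exclude a pairing. With a replicate block 1290 genes were higher and 1537 lower. Of the annexins, 3 were higher there, ANXA9 among them, and 2 lower. The assignment of fragments among near-identical copies limits the values of ANXA2 and ANXA8.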
